A study of Mus musculus with 12 samples.

Results

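The ribosomal protein genes described here encode the protein part of the cytosolic ribosome. They were chosen by symbol from a gene table of mouse intestinal mucosa, as the protein-coding genes named Rpl or Rps with a number, together with Rplp0, Rplp1, Rplp2 and Rpsa. The rule found 80 genes among 53715 gene identifiers, 49 of the large 60S subunit and 31 of the small 40S subunit. Of these, 77 passed the filter on low counts and were tested with 16558 genes in all. The remaining members, Rpl3l, Rpl10l and Rpl39l, are variant copies of Rpl3, Rpl10 and Rpl39 and were close to or at 0.

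RNA came from ileal or colonic mucosa of male C57BL/6J mice aged 8 weeks, with 3 libraries in each of 4 groups. Control mice carried the genotype label Slc39a8-fl/fl, and Slc39a8-IEC KO mice the label Slc39a8-fl/fl:Villin-Cre, in which the Villin promoter drives Cre in intestinal epithelial cells. Both genotypes therefore share the floxed allele by label, although the study describes its controls as a mixture that also held wild-type and Villin-Cre mice. Mucosa also holds immune, stromal and some muscle cells, in which Villin-Cre does not delete the gene. The labels do not say whether ileum and colon came from the same mice. In bulk RNA, fewer cells of a type and less RNA per cell cannot be told apart.

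Ribosomal protein mRNAs are among the most abundant and most evenly expressed messages of a cell. Each protein is made in step with the others and built into a subunit with ribosomal RNA in the nucleolus. The mRNAs begin with a run of pyrimidines, the 5-prime terminal oligopyrimidine (TOP) tract, through which the mTORC1 kinase and LARP1 control their translation. In the intestine, ribosome production is high in the dividing cells of the crypt. The proteins differ widely in size, and the smallest are coded by very short messages.

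The coding sequences of 3 members are shown because message length and base composition are the properties along which the genes differed between libraries. They are GENCODE M21 sequences in 5′ to 3′ order with the start and stop codons in capitals. Rpl41 has the shortest coding sequence of the family. Rpl39 and Rps27 were among the members with the largest genotype differences in colon.
Rpl41: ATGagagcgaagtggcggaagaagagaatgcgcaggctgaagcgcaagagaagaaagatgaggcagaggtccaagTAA
Rpl39: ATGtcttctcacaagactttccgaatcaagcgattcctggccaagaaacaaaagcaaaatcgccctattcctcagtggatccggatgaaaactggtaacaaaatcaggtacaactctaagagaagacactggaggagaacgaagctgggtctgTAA
Rps27: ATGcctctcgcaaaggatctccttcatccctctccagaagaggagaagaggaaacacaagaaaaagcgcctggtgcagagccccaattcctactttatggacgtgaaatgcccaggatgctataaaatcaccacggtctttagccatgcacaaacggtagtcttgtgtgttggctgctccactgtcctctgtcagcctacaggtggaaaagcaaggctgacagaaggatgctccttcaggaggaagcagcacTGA
The Rpl41 sequence has 78 bases with its stop codon, Rpl39 has 156 and Rps27 has 255. Their GC content was 51.3% for Rpl41, 44.2% for Rpl39 and 50.6% for Rps27. Rpl39 thus had the lowest value of the tested members, which ran up to 61.3%.

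The start of these genes was examined in RefSeq windows, which were at hand for 60 of the 80 members. The letters CTTTC, a pyrimidine run as found in TOP tracts, stood on the sense strand between 10 bases before and 20 bases from the annotated start in 15 members, or 25% of those with a window. The same window held the letters in 4.43% of all 27025 genes. On the opposite strand the letters stood in 3.33% of the members and 4.31% of all genes. Of the 8 members with the shortest transcripts, 6 had a window, and the 3 that held the letters are shown with each match in capitals.
Rpl38, chr11:114668570-114668599, plus strand: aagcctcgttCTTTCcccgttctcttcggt
Rps27, chr3:90213629-90213658, minus strand: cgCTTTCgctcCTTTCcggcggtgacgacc
Rplp2, chr7:141447641-141447670, plus strand: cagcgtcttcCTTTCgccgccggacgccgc
The coordinates belong to build GRCm38.p6. A match is a description of letters, and it does not show a start site in use.

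The members took between 2.97% and 3.997% of all counts in a library. Library totals ranged from 16749138 to 27903083 expected counts. Ileum control replicate 3 and ileum KO replicate 1 stood apart from the other ileal libraries, with summed levels of 6 smooth muscle genes of 34.2 and 20.2 CPM against 1814 to 2643, and of 10 proliferation genes of 883 and 676 CPM against 391 to 488. Mean levels of the 77 tested members ran from 103 to 979 CPM (counts scaled to a common library size with TMM factors), with a median of 411. Per kilobase of annotated transcript, 76 of the 77 ranked in the top 500 of 14446 coding genes. The highest by this measure were Rps27 at 1631, Rplp1 at 1450 and Rps14 at 1445 CPM per kilobase. Rps27 and its partner copy Rps27l differed in this measure, Rps27l standing at 317. For the other variant copies, Rpl10l had 0 counts in all 12 libraries, Rpl3l had 6 and Rpl39l had 24, while Rpl10, Rpl3 and Rpl39 had 908, 393 and 340 CPM per kilobase.

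The targeted gene Slc39a8, a divalent metal transporter, was checked first. Its level was 6.73 ± 1.59 CPM (SD, n = 3) in ileum control and 3.26 ± 0.954 in ileum KO. In colon it was 20.5 ± 0.393 in control and 8.93 ± 2.25 in KO. The KO libraries were below all control libraries of the same tissue. The fall over both tissues was 1.13 on the log2 scale (SE 0.17), with an edgeR quasi-likelihood adjusted p of 0.382. This was the smallest adjusted p of all 16558 genes, so the test did not call even the targeted gene. The study, with DESeq2 on the combined tissues, listed Slc39a8 as lower at an adjusted p under 0.1. An absence of calls for genotype in the edgeR test therefore does not show an absence of difference.

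The first comparison asked whether ribosomal protein mRNAs differed between Slc39a8-IEC KO and control mice in ileum and colon together. None of the 77 members was called, and the edgeR quasi-likelihood test at an adjusted p under 0.1 called 0 of 16558 genes (0%). DESeq2 and limma-voom also called 0 members, while over all genes DESeq2 called 3 higher and 1 lower and limma-voom 0 higher and 1 lower. The fitted differences leaned to lower values in KO, with 62 of 77 below 0 against 49.5% of all genes. The members' median was -0.16 on the log2 scale, while that of all genes was 0.00. At an unadjusted p under 0.05, 23 members were lower and 0 were higher, that is 29.9% of the members, where 2.19% of all genes were lower and 1.68% higher. This count depended on which library was left out, and it moved both ways. It was 3 without colon control replicate 1, 6 without ileum KO replicate 1, 6 without colon KO replicate 3, 9 without ileum control replicate 1, 12 without colon KO replicate 2, 13 without colon control replicate 2 and 15 without ileum control replicate 2. It was 19 without ileum KO replicate 3, 25 without colon KO replicate 1 and 27 without ileum control replicate 3. It rose to 28 without colon control replicate 3 and to 30 without ileum KO replicate 2. The members' count was 1 without both colon control replicate 1 and colon KO replicate 3, a pair left out after their levels were seen. Over all genes the lower count moved too, from 208 of 17083 without ileum control replicate 1 to 760 of 16987 without ileum control replicate 3. It was 215 of 17034 without colon control replicate 1, 500 of 17067 without ileum KO replicate 2 and 162 of 16792 without the pair.

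The member with the smallest p was Rps7, a 40S protein that also binds Mdm2. In ileum control it stood at 1009, 636 and 619 CPM and in ileum KO at 486, 650 and 543. In colon control it stood at 1249, 999 and 773 CPM and in colon KO at 590, 719 and 637. The colonic groups did not overlap, whereas in ileum the KO replicate 2 lay above control replicates 2 and 3. The log2 fold change was -0.53 (SE 0.16), with an edgeR adjusted p of 0.998, and an exact permutation test within tissues gave p = 0.015 (two-sided, 0.005 being the smallest p it allows).

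Rpl22, a 60S protein, and Rpl39, which lines the exit tunnel for the growing protein chain, followed. Rpl22 had a log2 fold change of -0.32 (SE 0.12) and Rpl39 one of -0.63 (SE 0.22), both with an edgeR adjusted p of 0.998. Among the members with fitted values above 0, the smallest p belonged to Rpl8, Rps9 and Rpl13, with log2 fold changes of 0.20 (SE 0.17), 0.17 (SE 0.16) and 0.13 (SE 0.13). None of these reached an unadjusted p under 0.05. Rpl5 and Rpl11, which together with 5S rRNA bind Mdm2, had values of -0.25 (SE 0.11) and -0.26 (SE 0.11), also uncalled. Rps6, the substrate of S6 kinases, had -0.00 (SE 0.11), and Rps27a, which is made as a fusion with ubiquitin, had -0.43 (SE 0.17).

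**Figure D1:**
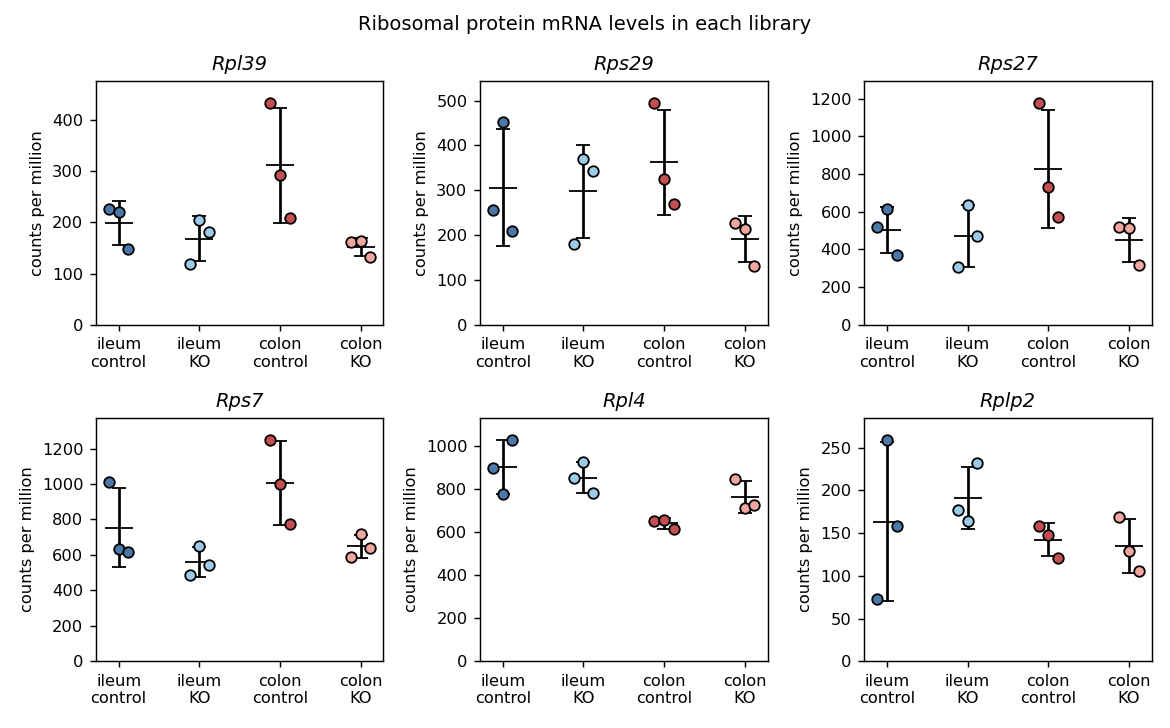
CPM (TMM-scaled counts, linear axis from 0) of 6 ribosomal protein genes in the 12 libraries. Points are libraries in the order of replicates 1, 2 and 3, bars are the mean ± SD of 3 libraries, and all 3 colon KO libraries lie below all 3 colon control libraries for Rpl39, Rps29, Rps27 and Rps7 while Rpl4 has the opposite order in colon.

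In colon alone, Rpl39, Rps29 and Rps27, each with a coding sequence of at most 300 bases, had the lowest fold changes of KO over control. Rpl39 stood at 433, 292 and 209 CPM in colon control and at 161, 164 and 132 in colon KO. Every KO library was below every control library, and the control libraries themselves were widely spread. The log2 fold change was -1.03 (SE 0.28), with an unadjusted p of 0.00333 and an adjusted p of 1 in edgeR. In ileum, Rpl39 stood at 226, 221 and 149 CPM in control and at 119, 205 and 181 in KO, and these groups overlapped. The difference between the colonic and the ileal effect was -0.79 (SE 0.39), with an unadjusted p of 0.0663 in edgeR.

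Rps29, a small zinc-binding 40S protein, stood at 494, 324 and 269 CPM in colon control and at 227, 214 and 132 in colon KO. Its log2 fold change was -0.92 (SE 0.36). Rps27, another zinc-binding 40S protein, stood at 1177, 730 and 573 CPM in colon control and at 518, 515 and 318 in colon KO, with a log2 fold change of -0.88 (SE 0.33). For both genes the groups did not overlap in colon, colon control replicate 1 was the highest library and colon KO replicate 3 the lowest of the colonic ones. Rpl41, with the shortest coding sequence, stood at 788, 605 and 513 CPM in colon control and at 522, 488 and 425 in colon KO. Here the groups overlapped, and the log2 fold change was -0.41 (SE 0.23). None of these was called, the edgeR adjusted p being 1 for each.

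Over the family, 12 of 77 members (15.6%) had colonic KO libraries all below the control libraries, against 5.85% of all genes, and 2 members, Rpl4 and Rpsa, had them all above, against 6.98%. With 3 against 3 libraries an exact permutation test cannot give a p below 0.1. At an unadjusted p under 0.05, 15 members were lower in colon KO (19.5%, against 1.36% of all genes) and 0 were higher (0.966% of all genes). The edgeR, DESeq2 and limma-voom tests each called 0 members. In ileum, 0 members passed an unadjusted p under 0.05 (1.52% of all genes did), although the median was also -0.16. Leaving out ileum KO replicate 1 gave an ileal median of -0.078, and leaving out replicate 2 gave -0.24. The median in colon was -0.19. It was -0.092 without colon control replicate 1, -0.087 without colon KO replicate 3, -0.28 without colon control replicate 3 and -0.28 without colon KO replicate 1. It was 0.017 without colon control replicate 1 and colon KO replicate 3 together, and the count of 15 then fell to 0. That count was 1 without colon control replicate 1, 2 without colon KO replicate 3, 7 without colon control replicate 2, 7 without colon KO replicate 2 and 27 without colon control replicate 3. Over all genes the lower counts were, in the same order, 125 of 17034, 139 of 16951, 249 of 17025, 216 of 17026 and 249 of 17002. Without colon control replicate 1 and colon KO replicate 3 together, 110 of 16792 genes were lower.

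The colonic difference was ordered by the length of the coding sequence. The 10 tested members with at most 300 coding bases had a median log2 fold change of -0.56, and all 10 were below 0. The 38 members with more bases, up to 500, had a median of -0.24, and the 29 longer ones had 0.03. Spearman's rho between coding length and the colonic difference was 0.69 over the 77 members, which share the same 6 libraries and so are not independent. In ileum rho was 0.06. Other coding genes showed the same order with smaller medians, -0.15 for 333 genes of at most 300 bases, -0.07 for 962 genes with more, up to 500, and 0.02 for 13074 longer ones, and their rho was 0.05.

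**Figure D2:**
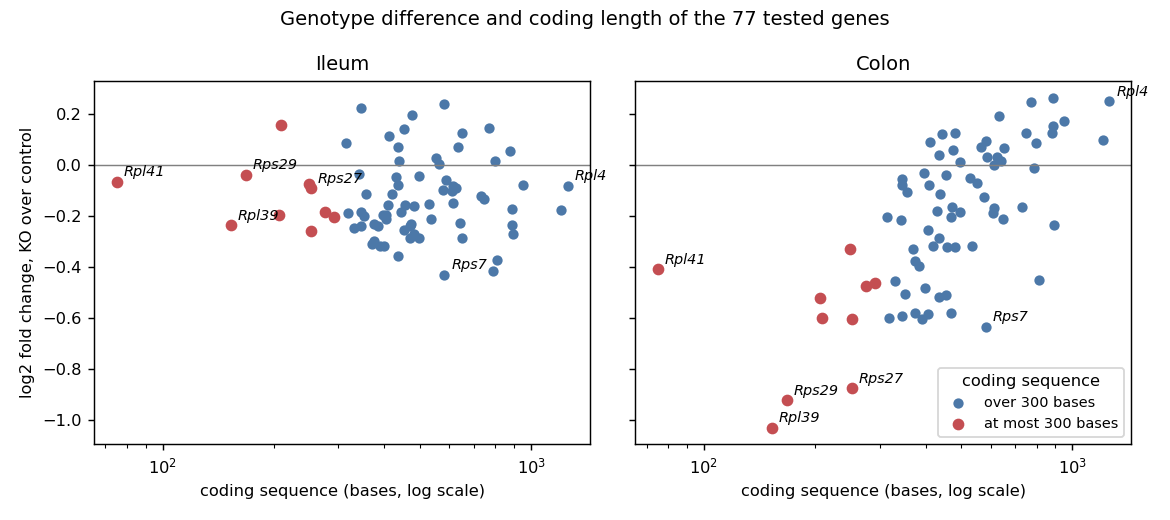
Log2 fold change of KO over control against the length of the coding sequence (log axis) for the 77 tested ribosomal protein genes, in ileum and in colon, each from 3 against 3 libraries. Red points have at most 300 coding bases, and in colon their median is -0.56 while that of the 29 members over 500 bases is 0.03.

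With short defined by the annotated transcript, at most 500 bases, the median of the short members lay below that of the others by 0.34 on the log2 scale in colon, as a difference of -0.34 without a test. Rpl39, with an annotated transcript of 612 bases, counted among the others in this split. In ileum the difference was 0.07. With short taken from the union of all exons, as the lowest 25% of members, it was -0.047 in colon, so the order depended on how length was measured. Annotated ends of these genes vary, and coding length does not depend on them.

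The length order was also present between libraries of the same group. The gap between the median level of members with at most 300 coding bases and that of members over 500 bases was 0.64 in colon control replicate 1, 0.21 in replicate 2 and 0.06 in replicate 3, each on the log2 scale relative to the gene's mean over the 12 libraries. In colon KO it was -0.20, -0.08 and -0.56. In ileum control it was -0.01, 0.27 and -0.43, and in ileum KO -0.46, 0.14 and 0.16. The lowest ileal gaps thus belonged to ileum control replicate 3 and ileum KO replicate 1, the libraries with few smooth muscle transcripts. Without these libraries, 24 members were lower over both tissues and 21 in colon at an unadjusted p under 0.05, and 0 were called. Of 16896 genes in that setting, 781 and 441 were lower at the same threshold. In colon the share of counts from mitochondrially encoded genes was 13.1%, 11.5% and 10.3% in control and 10.3%, 10.5% and 8.13% in KO, so that colon control replicate 1 was highest and colon KO replicate 3 lowest in both measures. The spread within ileum control was thus as wide as the distance between the colonic groups. Other coding genes of the same length classes moved in parallel, with a gap of 0.29 in colon control replicate 1, -0.19 in colon KO replicate 3, -0.24 in ileum control replicate 3 and -0.35 in ileum KO replicate 1. The part of these library properties in the genotype difference was not tested.

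**Figure D3:**
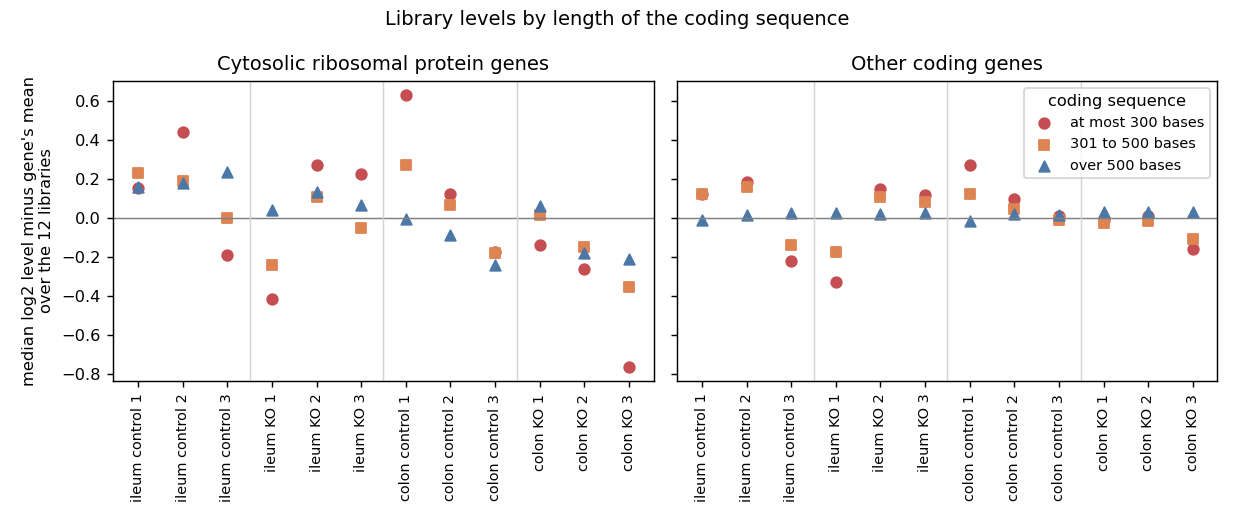
Median log2 level in each of the 12 libraries, relative to each gene's mean over all libraries, for 3 classes of coding length, in the 77 tested ribosomal protein genes and in other coding genes. Members of at most 300 bases range from 0.63 in colon control replicate 1 to -0.77 in colon KO replicate 3, and the shortest class of other genes from 0.27 in colon control replicate 1 to -0.33 in ileum KO replicate 1, with -0.16 in colon KO replicate 3.

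Base composition divided the members as well. Over both tissues, members in the lowest of 3 equal classes of coding GC content (up to 50.5%) had a median genotype difference of -0.33 and those in the highest (above 54.3%) one of -0.02. For other coding genes in the same GC ranges the medians were -0.05 and 0.06. Rplp2, an acidic stalk protein that recruits elongation factors, stood at 72.5 CPM in ileum control replicate 1 but at 259 and 159 in replicates 2 and 3. Rpl8 was likewise at 198 CPM in that library against 431 and 435. Offsets for coding length and for GC content of the whole transcript were fitted over protein-coding genes, a choice made after the data were seen. With them, the members' median over both tissues was -0.14. At an unadjusted p under 0.05, 24 members were lower, against 327 of 16558 genes. For KO over control in colon, the median of members with at most 300 coding bases differed from that of the others by -0.27 with the offsets and -0.43 without. In ileum the values were 0.08 and 0.02. For colon over ileum they were 0.05 and 0.27 in control, and -0.29 and -0.31 in KO.

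The second comparison set colon against ileum. In control mice, 1 of 77 members was called higher in colon and 18 were called lower, or 24.7% in all, against 35.9% of all genes. The share called lower was 23.4%, close to the 19.6% of all genes, and the share called higher was 1.30%, against 16.2%. In KO mice 0 were higher (17.1% of all genes) and 13 were lower, 16.9% against 20% of all genes; 37.1% of all genes were called in either direction. These libraries are not those of the control comparison, but both comparisons used the same fit, with shared scaling and 1 estimate of the spread. Called lower in both were 10 members, 55.6% of the control list and 76.9% of the KO list. Over all genes, 2746 were called lower in both, 84.5% of the control list and 82.9% of the KO list. Rpl6, Rpl10, Rpl29, Rplp0 and Rps2 were among the 10 members. The counts depended on single libraries: 32 members were called in control without ileum control replicate 1, and in KO 5 or 4 were called without ileum KO replicate 2 or 3, and 3 or 4 without colon KO replicate 2 or 3.

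Rpl6, a large 60S protein, had the largest fall among the members in control mice. In KO mice the largest was that of Rps28, a small 40S protein, at -0.81 (SE 0.21, edgeR adjusted p = 0.0138). Rpl6 stood at 625, 497 and 648 CPM in ileum control and at 311, 331 and 274 in colon control. In KO mice it stood at 520, 543 and 441 in ileum and at 388, 300 and 330 in colon. Ileum and colon did not overlap in either genotype. The log2 fold change of Rpl6 was -0.95 (SE 0.16, edgeR adjusted p = 0.00095) in control and -0.56 (SE 0.16, edgeR adjusted p = 0.0198) in KO.

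Rpl10, which completes the 60S subunit late in its assembly, stood at 1204, 857 and 838 CPM in ileum control and at 584, 560 and 513 in colon control. Its log2 fold change was -0.81 (SE 0.18, edgeR adjusted p = 0.00525). Rpsa, a 40S protein also known as the laminin receptor, changed by -0.73 (SE 0.17, edgeR adjusted p = 0.007), and Rpl29 by -0.71 (SE 0.14, edgeR adjusted p = 0.00371). Rps2, a 40S protein at the mRNA entry site, changed by -0.75 (SE 0.26, edgeR adjusted p = 0.0526), with 261 CPM in ileum control replicate 1 within the colonic range of 248 to 303. The Rps2 call was lost without ileum control replicate 2 (adjusted p = 0.161) or 3 (adjusted p = 0.135) and without colon control replicate 1 (adjusted p = 0.126) or 3 (adjusted p = 0.141), in edgeR. Rplp0, the base of the ribosomal stalk, fell by 0.68 on the log2 scale in control, while its partners Rplp1 and Rplp2 had values of -0.06 (SE 0.22) and -0.20 (SE 0.36).

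Rpl36a was the single member called higher in colon. It stood at 310, 308 and 217 CPM in ileum control and at 599, 444 and 328 in colon control, with no overlap. The log2 fold change was 0.71 (SE 0.26, edgeR adjusted p = 0.0607). The call was lost without colon control replicate 1 (0.47, adjusted p = 0.235), without colon control replicate 2 (0.73, adjusted p = 0.115) or without ileum control replicate 3 (0.55, adjusted p = 0.167). In KO mice its value was 0.30 (SE 0.26).

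The direction of the family as a whole depended on the scaling. With library size alone and no TMM factors, 22 members were called higher and 6 lower in control, and 10 higher and 1 lower in KO. Over all genes that scaling called 25.1% higher and 12.7% lower in control, and 28% and 11.5% in KO, so the 28.6% of members called higher in control was near the share of all genes. With upper-quartile factors the split was 7 higher and 15 lower in control, and 1 higher and 5 lower in KO, against 20.4% and 16.5% of all genes in control and 22.2% and 15.9% in KO. The members' median in control was -0.13 with TMM and 0.08 with library size alone, while the median of all genes moved from 0.016 to 0.24. With TMM, the members' median in control was -0.039 without ileum control replicate 2, -0.053 without colon control replicate 3, -0.082 without ileum control replicate 1 and -0.20 without colon control replicate 1. Without both ileal libraries with few muscle transcripts it was -0.13, with 0 members called higher and 21 lower, and in KO it was -0.24, with 0 higher and 19 lower. Relative to all genes, the members' median stayed lower under every alternative run for the tissue comparisons, with differences from -0.20 to -0.046 in control and from -0.29 to -0.14 in KO. The 77 members had a Pearson r of 0.75 between the tissue differences of the 2 genotypes, a description over genes that share libraries within each comparison. No member was called for a difference of the genotype effect between the tissues, with edgeR, DESeq2 or limma-voom, and 0 passed an unadjusted p under 0.05 (1.02% of all genes did).

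**Figure D4:**
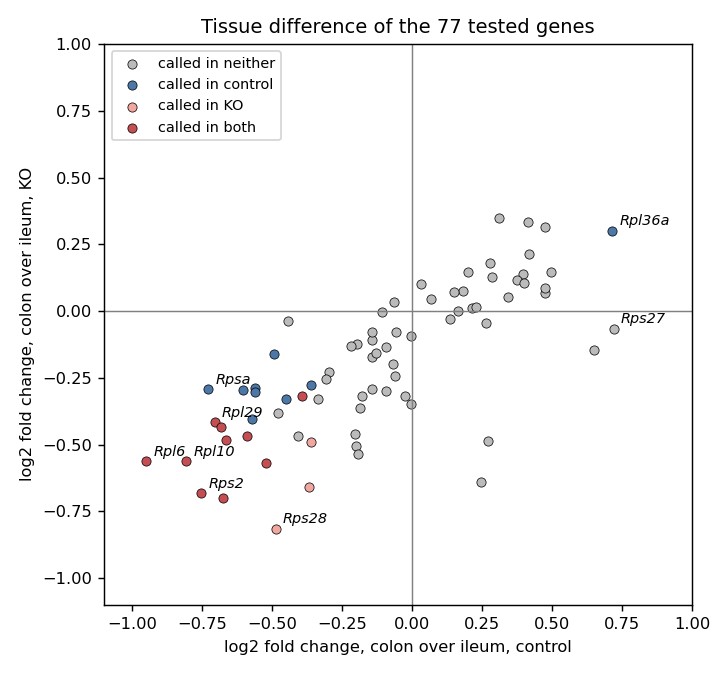
Log2 fold change of colon over ileum in control (x axis) and in KO mice (y axis) for the 77 tested ribosomal protein genes, each from 3 against 3 libraries with TMM scaling. Colours mark calls at an adjusted p under 0.1, and the 10 genes called in both lie at the lower left, a placing that depends on the scaling.

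Cell makeup differed between the tissues beside these values. Of 10 proliferation genes, 9 were called lower in colon of control mice, where 19.6% of all genes were. Their summed level was 422 to 883 CPM in ileum control and 228 to 265 in colon control. That of 6 crypt stem cell genes was 214 to 903 CPM in ileum control and 33.7 to 44.9 in colon control. That of 8 epithelial genes was lower in colon for all 8. The 6 smooth muscle genes summed to 34.2 to 2643 CPM in ileum control, to 20.2 to 2035 in ileum KO and to 2614 to 3954 in colon control. The part of cell makeup in the ribosomal protein differences was not tested.

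Other genes of ribosome production were described from lists. In colon of control mice, 16.2% of all genes were called higher and 19.6% lower. Of 28 ribosome biogenesis genes, 2 were called higher and 9 lower in colon of control mice, with a median of -0.41, led by Eif6 (-0.81, SE 0.19), which keeps the subunits apart, and Nhp2 (-0.79, SE 0.19), a box H/ACA particle protein. Of 20 translation factors and other TOP mRNAs, 1 was higher and 6 lower, with Hnrnpa1 at -0.61 (SE 0.15) and Pabpc1, the poly(A)-binding protein, at -0.47 (SE 0.15). Of 18 mTORC1 and Myc regulators, 2 were higher and 3 lower, led by Eif4ebp1, a translation repressor, at -1.36 (SE 0.22). Of 78 mitochondrial ribosomal proteins, 5 were higher and 5 lower, with a median of -0.02. Of 8 ribosomal proteins outside the symbol rule, 0 were higher and 2, Rpl7l1 and Fau, were lower.

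For genotype over both tissues, 0 genes of these 5 lists were called. The biogenesis genes had a median of 0.16 with 7 of 28 below 0, the opposite sign to the ribosomal proteins. The translation factors had a median of -0.02, the mitochondrial ribosomal proteins 0.03 and the ribosomal proteins outside the rule -0.19. At an unadjusted p under 0.05, 1.68% of all genes were higher and 2.19% lower. The biogenesis list had 2 genes higher and 1 lower at that threshold, the translation factors 0 higher and 4 lower, and the regulators 0 of either. The mitochondrial ribosomal proteins had 1 higher and 4 lower, and the ribosomal proteins outside the rule 0 higher and 3 lower.

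The members varied together across libraries. The median Pearson correlation of a member with the mean of the other members was 0.63 over 12 libraries, and 53 of 77 exceeded 0.5. The genes outside the family most like the members' mean were Gm10076 (r = 0.93), Snrpe (0.91), Ndufa3 (0.91), Pin4 (0.88), Mrps21 (0.88), Ndufv3 (0.87), Mrpl23 (0.87), Mrpl13 (0.87), Cstf2t (0.86) and Gtf3c6 (0.86). Snrpe, Ndufa3 and Mrps21 have coding sequences of 276, 252 and 261 bases. Those of Pin4, Mrpl23, Mrpl13, Gtf3c6, Ndufv3 and Cstf2t are longer, with 393, 438, 534, 681, 1404 and 1896 bases. Gm10076 has no annotated coding length.

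Many members share sequence with other annotated genes, which could affect how reads were assigned. Over 50% of the 75-base windows of 40 members also occurred in transcripts of other genes. The share was 98.5% for Rps27, 91.9% for Rpl10, 84.6% for Rpl36a and 57.8% for Rpl6. It was 7.62% for Rpl39 and 30.7% for Rps29. Among 150-base windows the shares were 98.0% for Rps27, 90.9% for Rpl10, 81.1% for Rpl36a, 45.9% for Rpl6, 9.13% for Rps29 and 0% for Rpl39, with a median of 29.2% over the members. How reads in shared stretches were assigned was not tested.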

How the data were processed

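The authors deposited one table of expected counts per gene (estimated counts that need not be whole) for 12 libraries of poly(A)-primed mucosal RNA. The submitters' processing notes name STAR and mm10, and the study names FeatureCounts on uniquely mapped reads. Of all values, 93.7% were whole. This did not hold for most members of the family. Fractional values occurred in 64 members, and 43 members had them in all 12 libraries. As FeatureCounts on unique reads gives whole numbers by default, the program behind the deposited values, and its handling of reads shared between genes, is uncertain. RNA integrity numbers were above 7.2 by label. Counts were rounded, and 92 spike-in lines, all at 0, were left out. Symbols, coordinates and lengths came from GENCODE M21, matched by gene identifier without version (71 members had the same version, 9 an older one). Lengths are those of the shortest principal transcript, and coding lengths leave out the stop codon.

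Genes passing filterByExpr were tested with edgeR 4.0.16 quasi-likelihood F tests (TMM, R 4.3.3) with Benjamini-Hochberg adjustment over all 16558 genes and a threshold of 0.1. Genotype over both tissues used tissue as a covariate, and the other comparisons a model of 4 groups. Standard errors are the absolute log2 fold change divided by the root of F. Exact permutation tests used log2(CPM + 0.5). DESeq2 1.42.0 and limma 3.58.1 were alternatives among 27 in all. The scripts were tested on simulated data. The labels give mice as separate samples but no culture or batch, so p-values measure the spread between these libraries.

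The members and lists were chosen with earlier results of these data known. Named members were the 8 shortest transcripts, members with a listed role and their variant copies, the 3 highest and 3 lowest per kilobase, the 3 smallest p in each direction for genotype, and up to 5 called members in each direction between tissues. Others were named as part of a counted set, or after their values were seen. Rps4l, a pseudogene in this annotation, was not a member.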

Additional observations from a re-analysis of the deposited data

How the results depend on the processing

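No member was called for genotype or its difference between tissues under any of the alternatives. Calls between colon and ileum in control numbered 19, and were 12 with only the 6 libraries compared, 30 with offsets for GC content and coding length, and 15 to 32 with one library left out, the highest without ileum control replicate 1. In KO they numbered 13, and were 6 with upper-quartile factors, 7 with no filter, 5 at an adjusted p under 0.05, 3 without the highest and lowest colonic libraries, and 3 to 19 with one library left out. The lower counts came without ileum KO replicate 2 (5) or 3 (4) and colon KO replicate 2 (3) or 3 (4). Over all genes, 12.4% were higher and 15.6% lower in control with only the 6 libraries compared, and 17.5% and 21.2% with the offsets. In KO 15.9% were lower with upper-quartile factors, 10.2% with no filter and 15.8% at an adjusted p under 0.05. Without the highest and lowest colonic libraries the share was 15.4%. Over the settings with one library left out, 11.9% to 17.6% of all genes were higher and 15.1% to 20.3% lower in control. In KO 14.1% to 22.1% were lower. The difference of short from other members was -0.047 by union of exons for genotype in colon, -0.50 at 400 bases for the difference of genotype effects, and -0.31 both at 400 bases and at 300 coding bases for tissue in KO, where the main value was -0.10. With one library left out it was 0.11 to 0.39 for tissue in control, -0.17 to -0.05 for tissue in KO, -0.41 to -0.23 for genotype in colon, -0.08 to 0.16 in ileum, -0.23 to -0.14 over both and -0.41 to -0.16 for the difference of genotype effects. The causes were not tested. For ileal and colonic libraries with the same replicate number, deviations from the group mean correlated at -0.053, 0.16 and -0.080 in control. In KO the values were 0.19, 0.051 and 0.25. With 3 libraries a group they cannot decide whether both tissues came from the same mice, and the main tests used no pairing. With the replicate block, 19 members were called between tissues in control, 9 in KO and 0 for genotype. In control 1 was higher and 18 lower (23.4%), against 14.6% and 17.6% of all genes. In KO all 9 were lower (11.7%), against 18.0% of all genes. Rps2 lost its call between tissues in control with library size alone (adjusted p = 0.188) and with only the 6 libraries compared (adjusted p = 0.122). Small differences were not detectable with 3 libraries a group.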
